A study of Oryza sativa Japonica Group with 4 samples.

Results

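TOPLESS corepressors and histone deacetylases were followed as a group of 10 rice genes, chosen by locus identifier: the corepressor genes OsTPR1, OsTPR2 (also called ASP1) and OsTPR3, 5 deacetylase genes of the RPD3/HDA1 superfamily and the HD2-type genes HDT701 and HDT702. Of these 10, 9 had a row in at least 1 library, among 28491 genes listed in all. Messenger RNA was sequenced from above-ground parts of unstressed rice seedlings (Oryza sativa, japonica) at the 4-leaf stage, grown in soil under natural summer light. The groups were a modd mutant (its libraries are called modd-labelled below) from the POSTECH rice mutant collection, titled modd2, and its DongJin wild type, a japonica cultivar, with 2 libraries each. The kind of mutation and the number of plants per library are not stated in the labels, so p-values measure only how these 4 samples vary, which may be technical variation.

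TOPLESS proteins do not bind DNA themselves. Transcription factors or adaptor proteins carrying a short repression motif (EAR) hold them at promoters, and they in turn bring in histone deacetylases, which remove acetyl groups from histone tails and lower transcription of the gene nearby. MODD is an adaptor of this kind: it is known in rice to bring OsTPR3 and HDA702 to genes bound by OsbZIP46, a bZIP factor that acts in abscisic acid (ABA) signalling. The transcripts below are those of these 2 partners and of other corepressors and deacetylases. The comparison asks whether their amounts differ between the genotypes.

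The libraries held 5334814 and 5357608 expected reads with the modd label and 5348748 and 5393972 in DongJin. MODD (LOC_Os03g11550) itself stood at 36.9 and 46.6 FPKM in the modd-labelled libraries and at 21.0 and 21.3 FPKM in DongJin. It was thus higher in the libraries labelled as its mutant. The labels do not state whether the mutation lowers the transcript, and directions are given for the libraries as labelled. FPKM is a read count scaled for transcript length and library depth. On the main axis of variation over tested genes (principal component 1, 60.2% of the variance), the modd-labelled libraries lay at -31.4 and -22.3 and the DongJin libraries at 9.38 and 44.3, so DongJin replicate 2 stood apart from its partner. Leaf markers were abundant and lower in both modd-labelled libraries than in either DongJin library. LHCB1, a light-harvesting protein gene, had 4328 and 5140 FPKM in the modd-labelled libraries and 5204 and 5652 FPKM in DongJin. RBCS, a Rubisco small-subunit gene, had 377.9 and 370.3 FPKM in the modd-labelled libraries and 432.4 and 535.6 FPKM in DongJin. The counts of both leaf markers held fractions. The root markers LSI1 and OsHKT2;1 were detected at 9.56 to 13.4 and 2.16 to 5.67 FPKM, the panicle marker OsMADS14 at 11 to 12.8, and the meristem marker OSH1 at 0 to 0.66.

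No corepressor or deacetylase gene of the group was called different between the genotypes. Of the 10, 8 passed the count filter and were tested, and 0 passed edgeR's quasi-likelihood test at an adjusted p under 0.05, where 0.837% of all 19365 tested genes passed, 0.501% higher and 0.336% lower. None of the 8 had an unadjusted p under 0.05 by edgeR or by DESeq2, against 16.8% and 7.88% of all tested genes. The median log2 fold change of the 8 was 0.06, with values from -0.18 to 0.18, and that of all tested genes was 0.00. Their median size of change without regard to sign was 0.12, against 0.20 over all tested genes, which were not matched to the group in level. Levels of the group ranged from abundant transcripts to ones with a few reads.

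**Figure D1:**
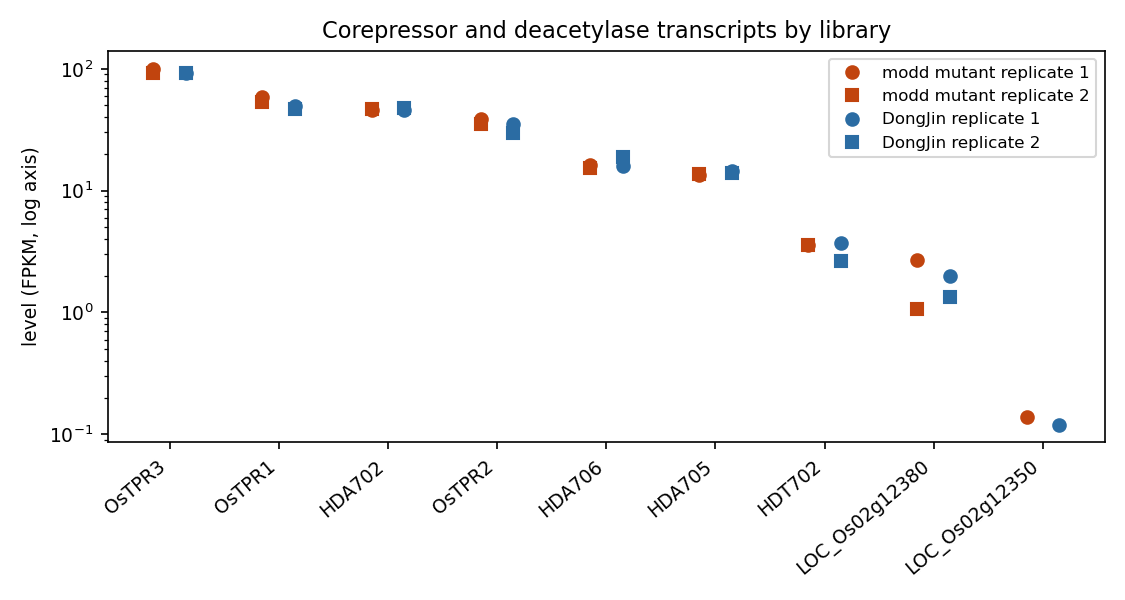
Level of each listed gene in every library in FPKM (log axis), ordered by its mean over the 4 libraries, with modd-labelled libraries (red) left of DongJin (blue) and replicates as circles and squares. OsTPR3 lies highest, at 91.6 to 100.4 FPKM, and LOC_Os02g12350 is drawn only in the 2 libraries that list it.

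Levels per transcript length were highest for OsTPR3, whose mean of 94.3 FPKM over 4 libraries lay at the 96.5th percentile of listed genes. OsTPR1 followed at 52.1 FPKM, HDA702 at 46.4, OsTPR2 at 34.7, HDA706 at 16.6, HDA705 at 14.0, HDT702 at 3.37 and LOC_Os02g12380 at 1.77 FPKM. The ranges over the 4 libraries overlapped between OsTPR1 and HDA702 and between HDT702 and LOC_Os02g12380. Every other neighbouring pair down to LOC_Os02g12350 was separated in all 4 libraries. The fall in level from OsTPR3 to LOC_Os02g12380 was thus far wider than any difference between the genotypes within 1 gene.

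Among the corepressors, OsTPR3 (LOC_Os03g14980), the partner MODD is known to recruit, had 100.4 and 91.6 FPKM in the modd-labelled libraries, against 92.0 and 93.0 FPKM in DongJin. These rested on 2266 and 2076 expected reads, against 2079 and 2121. The DongJin values lay inside the range spanned by the modd-labelled libraries, so the groups overlapped. The log2 fold change was 0.01 ± 0.110 (SE, n = 2 per group), with an adjusted p of 0.973 by edgeR. Its 95% interval ran from -0.23 to 0.26, that is from 0.85-fold to 1.19-fold.

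OsTPR1 (LOC_Os01g15020), a second TOPLESS-type corepressor, had 59.1 and 53.2 FPKM in the modd-labelled libraries and 49.3 and 47.0 FPKM in DongJin. Both modd-labelled libraries lay above both of DongJin, a separation that 50.3% of all tested genes showed in one direction or the other. Its log2 fold change was 0.18 ± 0.105 (SE), with an adjusted p of 0.413 by edgeR and a 95% interval from 0.966-fold to 1.33-fold. OsTPR2 (LOC_Os08g06480), known as ASP1 for the aberrant spikelets and panicles of its mutant, had 38.9 and 35.1 FPKM in the modd-labelled libraries and 35.0 and 29.8 FPKM in DongJin. Its groups were also separate, though modd-labelled replicate 2 and DongJin replicate 1 were nearly level. The log2 fold change of OsTPR2 was 0.15 ± 0.109 (SE), with an adjusted p of 0.525 by edgeR and a 95% interval from 0.937-fold to 1.31-fold. Without DongJin replicate 2 it was 0.07, and without DongJin replicate 1 it was 0.23. Without modd-labelled replicate 1 the value was 0.12 for OsTPR1 and 0.09 for OsTPR2.

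The root markers ran in the same order over the libraries as OsTPR1 and OsTPR2. LSI1, a silicon transporter gene, had 13.4 and 12.1 FPKM in the modd-labelled libraries and 11.6 and 9.56 FPKM in DongJin. OsHKT2;1, a sodium transporter gene, had 5.67 and 4.85 FPKM in the modd-labelled libraries and 3.77 and 2.16 FPKM in DongJin. Its log2 fold change was 0.78 (edgeR adjusted p = 0.2), and was 1.20 without DongJin replicate 1 and 0.47 without DongJin replicate 2. The leaf markers, given above, ran the other way, LHCB1 in the exact reverse order, with log2 fold changes of -0.24 for LHCB1 and -0.42 for RBCS (edgeR adjusted p = 0.502 and 0.186). The value of RBCS was -0.60 without DongJin replicate 1 and -0.22 without DongJin replicate 2. Principal component 1, with 60.2% of the variance over tested genes, ordered the libraries as the root markers did. How many of all tested genes follow that order was not counted. The part of the markers or of that component in the corepressor values was not tested. In whole shoots, fewer cells of a type and less RNA per cell cannot be told apart.

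Summed over the 3 corepressors, the level was 198.4 and 179.9 FPKM in the modd-labelled libraries and 176.3 and 169.8 FPKM in DongJin. OsTPR3 made up 50.6 and 50.9% of that sum in the modd-labelled libraries and 52.2 and 54.8% in DongJin. OsTPR1 held 29.8 and 29.6%, against 27.9 and 27.7% in DongJin. OsTPR2 held 19.6 and 19.5%, against 19.9 and 17.5% in DongJin. OsTPR3 was the most abundant of the 3 in every library, and its share was lower in both modd-labelled libraries than in either DongJin library. Groups were separate in level for 50.3% of all tested genes, and the difference in share was not tested.

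**Figure D2:**
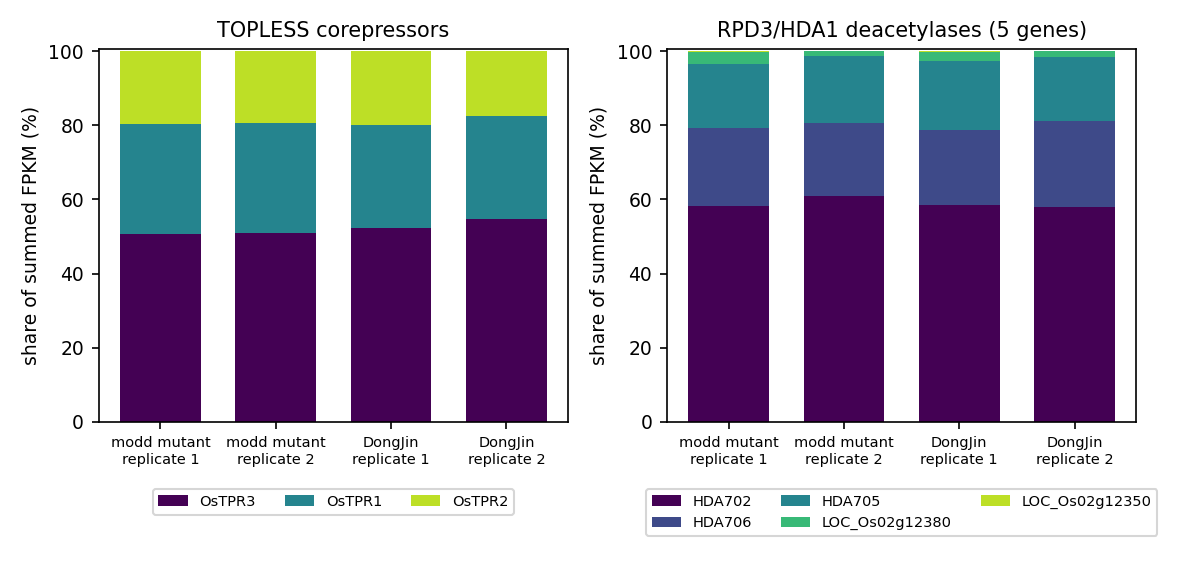
Share of each gene in the FPKM summed over the group's genes of its family, per library. Shown are the 3 corepressors (left) and the 5 RPD3/HDA1 genes of the group (right). OsTPR3 takes 50.6 to 54.8% of the corepressor sum and HDA702 takes 58.0 to 60.9% of the sum of those 5 genes. RPD3/HDA1 genes outside the group, such as HDA704 at a mean of 25.9 FPKM, are not in that sum.

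HDA702 (LOC_Os06g38470), also called OsHDAC1, is the deacetylase known to act with MODD and OsTPR3 in rice, and its level varied least among the 8 tested genes. It had 45.7 and 46.9 FPKM in the modd-labelled libraries and 45.6 and 47.3 FPKM in DongJin. The highest library exceeded the lowest 1.04-fold, and the groups overlapped. The log2 fold change was -0.05 ± 0.103 (SE, n = 2 per group), with an adjusted p of 0.834 by edgeR and a 95% interval from 0.822-fold to 1.13-fold. In the modd-labelled libraries, HDA702 provided 58.3 and 60.9% of the summed FPKM of the group's 5 RPD3/HDA1 genes, against 58.4 and 58.0% in DongJin. Set against its corepressor partner, OsTPR3 was 2.20 and 1.95 times as abundant as HDA702 in the modd-labelled libraries and 2.02 and 1.97 times in DongJin, per transcript length. The ratios of the groups overlapped.

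HDA706 (LOC_Os06g37420) had 16.3 and 15.2 FPKM in the modd-labelled libraries and 15.8 and 18.9 FPKM in DongJin, with the highest value in DongJin replicate 2. Its log2 fold change was -0.18 ± 0.165 (SE), with an adjusted p of 0.617 by edgeR and a 95% interval from 0.682-fold to 1.14-fold. Without DongJin replicate 2 it was -0.01, so the difference rested on that library, and without DongJin replicate 1 it was -0.34. HDA705 (LOC_Os08g25570), reported in rice to act in seed germination and the ABA response, had 13.5 and 13.8 FPKM in the modd-labelled libraries and 14.6 and 14.0 FPKM in DongJin. The groups of HDA705 did not overlap, yet its log2 fold change was -0.11 ± 0.144 (SE), with an adjusted p of 0.729 by edgeR and a 95% interval from 0.74-fold to 1.15-fold. Thus 3 of the 8 tested genes were separate between the groups, OsTPR1 and OsTPR2 higher and HDA705 lower, beside 24.7% of all tested genes separate and higher and 25.6% separate and lower.

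**Figure D3:**
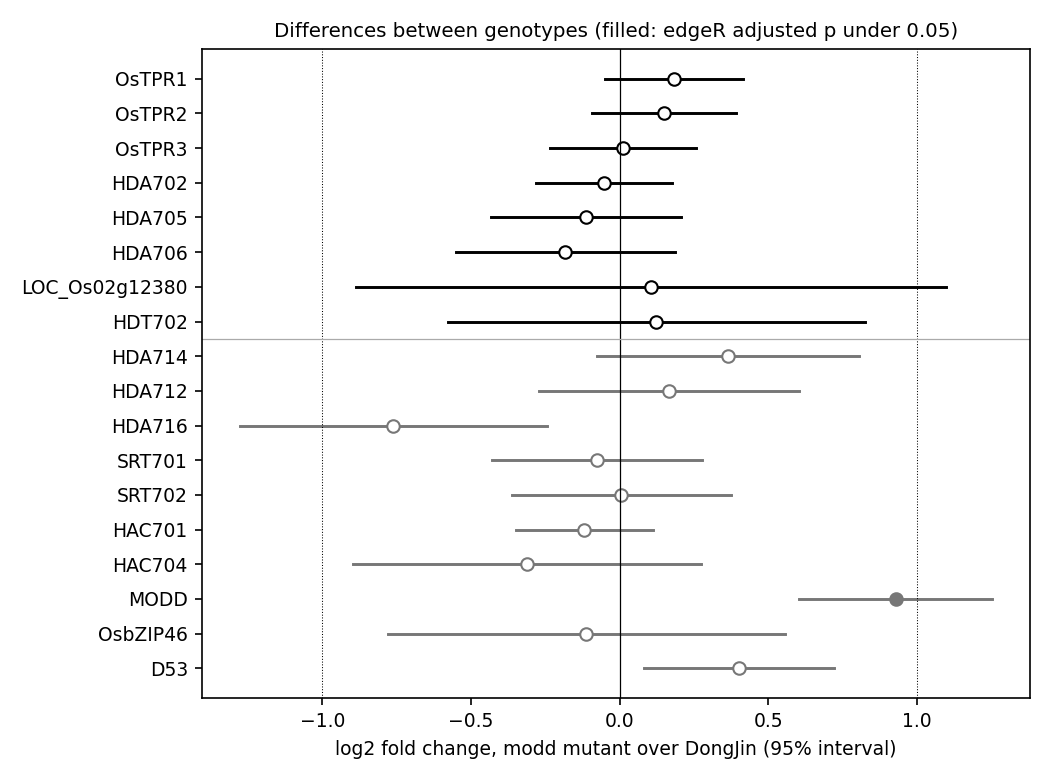
Log2 fold change, modd-labelled libraries over DongJin, with 95% intervals, for the 8 tested genes of the group (black) and related genes (grey), filled where the edgeR adjusted p was under 0.05. All 8 intervals of the group include 0, the widest being that of LOC_Os02g12380, and only MODD is filled.

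The remaining RPD3/HDA1 loci, LOC_Os02g12380 and LOC_Os02g12350, stand close together on chromosome 2 and carry the names HDA703 and HDA710. The sources used here do not tie each name to its locus, so they are called by identifier. LOC_Os02g12380 had 30.5 and 12.0 expected reads in the modd-labelled libraries and 22.8 and 15.2 in DongJin, or 2.70 and 1.06 FPKM against 1.98 and 1.33 FPKM. The modd-labelled libraries thus enclosed those of DongJin and differed from each other by more than the groups did. Counting alone gives 95% Poisson intervals of 20.2 to 42.8 and 6.2 to 21.0 reads for the 2 modd-labelled libraries, after rounding to 30 and 12. The log2 fold change was 0.11 ± 0.445 (SE), with an adjusted p of 0.929 by edgeR. Its 95% interval, from 0.541-fold to 2.14-fold, was the widest of the 8 and includes a 2-fold rise. Without modd-labelled replicate 1 the value was -0.68, and without modd-labelled replicate 2 it was 0.61. It was -0.14 without DongJin replicate 2 and 0.41 without DongJin replicate 1. LOC_Os02g12350 had 1.54 expected reads in modd-labelled replicate 1 and 1.36 in DongJin replicate 1 and no row in the other 2 libraries, too few for the count filter.

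Reads of these loci could not be assigned to 1 gene in full. Expected counts of LOC_Os02g12380, LOC_Os02g12350 and HDA705 added to whole reads, within 0.015 reads, in all 4 libraries: 166 and 150 reads in the modd-labelled libraries and 170 and 156 in DongJin. Not every locus took part in each library. The count of HDA705 was itself whole in modd-labelled replicate 1, and LOC_Os02g12350 had no row in replicate 2 of either group. HDA705 supplied 134 and 138 of these in the modd-labelled libraries and 146 and 141 in DongJin. Tested as 1 gene, the 3 loci had a log2 fold change of -0.08 ± 0.139 (SE), with an adjusted p of 0.81 by edgeR and a 95% interval from -0.39 to 0.23 on the log2 scale. Counts of OsTPR1, OsTPR2, OsTPR3, HDA702, HDA706 and HDT702 were whole in every library, whereas 22.4% of all listed genes had a fractional count in at least 1 library.

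**Figure D4:**
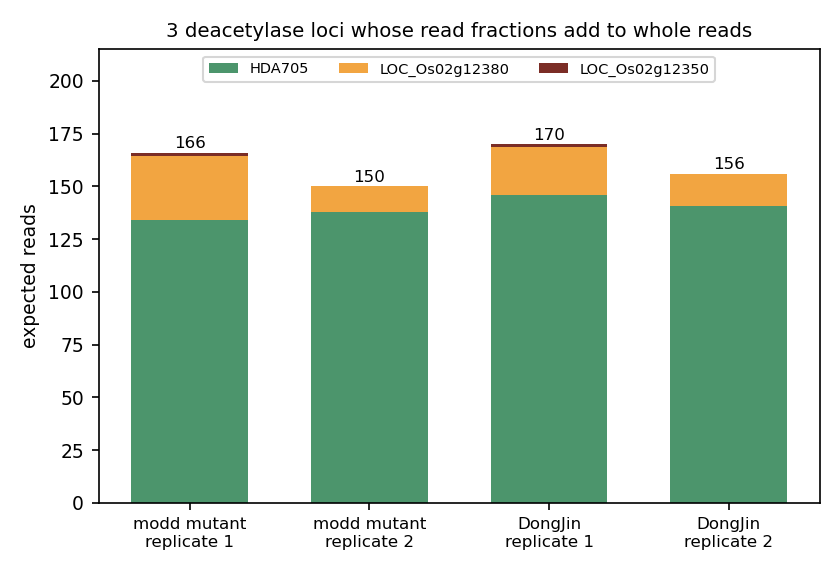
Expected reads of HDA705, LOC_Os02g12380 and LOC_Os02g12350 stacked per library, with the sum above each bar. The sums are 166 and 150 in the modd-labelled libraries and 170 and 156 in DongJin, and HDA705 is the largest part of each.

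Plant-specific HD2-type deacetylases were low or had no row. HDT702 (LOC_Os01g68104) had 24 and 24 reads in the modd-labelled libraries and 25 and 18 in DongJin, or 3.57 and 3.55 FPKM against 3.71 and 2.65 FPKM. Its log2 fold change was 0.12 ± 0.315 (SE), with an adjusted p of 0.878 by edgeR and a 95% interval from 0.67-fold to 1.77-fold. That value was -0.07 without DongJin replicate 2 and 0.35 without DongJin replicate 1. HDT701 (LOC_Os05g51840), known in rice as a negative regulator of innate immunity, had no row in any of the 4 tables. Absence from the tables need not be a true 0, and no level or fold is given for it.

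Transcript length, which RSEM averages over the isoforms of a gene by their abundance, gave a second readout for the 5 genes of the group with several listed transcripts. OsTPR1 averaged 4195 and 4180 bases in the modd-labelled libraries and 4196 and 4153 bases in DongJin. OsTPR3 averaged 4175 and 4177 bases in the modd-labelled libraries and 4170 and 4172 bases in DongJin. Only for OsTPR3, of these 5, were the groups separate, by 5.53 bases on average, and 32.6% of the 5305 genes with several transcripts and varying length were separate in this measure. HDA702, with 3 transcripts, averaged 2188 and 2180 bases in the modd-labelled libraries and 2187 and 2191 bases in DongJin. Outside the group, MODD, with 2 transcripts, averaged 1666 bases in both modd-labelled libraries and 1678 bases in both DongJin libraries. Its groups were thus separate in length as well as in level.

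Related genes outside the group were read from the same fit. Of 8 other RPD3/HDA1 deacetylase genes, 6 were tested and 0 were called in either direction, with a median log2 fold change of 0.01. HDA716 (LOC_Os05g36930) had 5 and 6.70 FPKM in the modd-labelled libraries and 8.80 and 10.6 FPKM in DongJin, a log2 fold change of -0.76 ± 0.232 (SE), with an adjusted p of 0.144 by edgeR. It was -1.01 without modd-labelled replicate 2, -0.997 without DongJin replicate 1 and -0.49 without DongJin replicate 2. Its fractions added to whole reads with those of HDA712, in the next locus by identifier. Summed, the 2 loci had 146 and 201 reads in the modd-labelled libraries and 187 and 217 in DongJin, a log2 fold change of -0.26 ± 0.177 (SE), with an adjusted p of 0.501 by edgeR. HDA712 alone had a log2 fold change of 0.17, and the value of the sum lay nearer 0 than that of HDA716. HDA714 had a log2 fold change of 0.36 ± 0.197 (SE), with an adjusted p of 0.387 by edgeR, and was 0.20 without modd-labelled replicate 2.

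The sirtuins, NAD-dependent deacetylases, were likewise uncalled: of 2 tested, SRT701 had a log2 fold change of -0.08 and SRT702 one of 0.01, with edgeR adjusted p of 0.845 and 0.988. All 8 listed histone acetyltransferase genes, whose products add the marks that deacetylases remove, were tested, and 0 were called, with a median log2 fold change of -0.05. Those with the smallest adjusted p were HAC704, at -0.31 (edgeR adjusted p = 0.588), and HAC701, at -0.12 (edgeR adjusted p = 0.602). Leaving out 1 library at a time, HAC704 ran from -0.56 (without modd-labelled replicate 1) to -0.04 (without DongJin replicate 2), and was -0.10 without modd-labelled replicate 2 and -0.55 without DongJin replicate 1. HAC701 ran from -0.18 (without modd-labelled replicate 1) to -0.06 (without modd-labelled replicate 2). Among 3 genes for proteins that recruit or meet the corepressors, MODD rose by a log2 fold change of 0.93 ± 0.146 (SE), with an adjusted p of 0.0272 by edgeR, and 0 fell. With limma on log2(FPKM + 1) MODD did not pass (adjusted p = 0.091). OsbZIP46 had a log2 fold change of -0.11 ± 0.298 (SE), with an adjusted p of 0.885 by edgeR. D53, a repressor of strigolactone signalling that binds TOPLESS proteins, had 9.44 and 8.03 FPKM in the modd-labelled libraries and 6.45 and 6.39 FPKM in DongJin. The log2 fold change of D53 was 0.40 ± 0.143 (SE), with an adjusted p of 0.2 by edgeR. Its libraries ran in the order of the root markers and of principal component 1. Its counts held fractions, a mark of reads shared with a similar gene.

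Patterns over the libraries were compared among the 27 tested genes of the group and of these lists, by the root mean square difference of centred log2 CPM over 4 libraries. OsTPR3 was most like HAC701, at 0.066, and HDA702, at 0.067. HDA702 was most like HDA713 and HDA705, at 0.048 and 0.052. With 4 libraries and differences this small, these are descriptions of near-flat profiles.

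**Figure D5:**
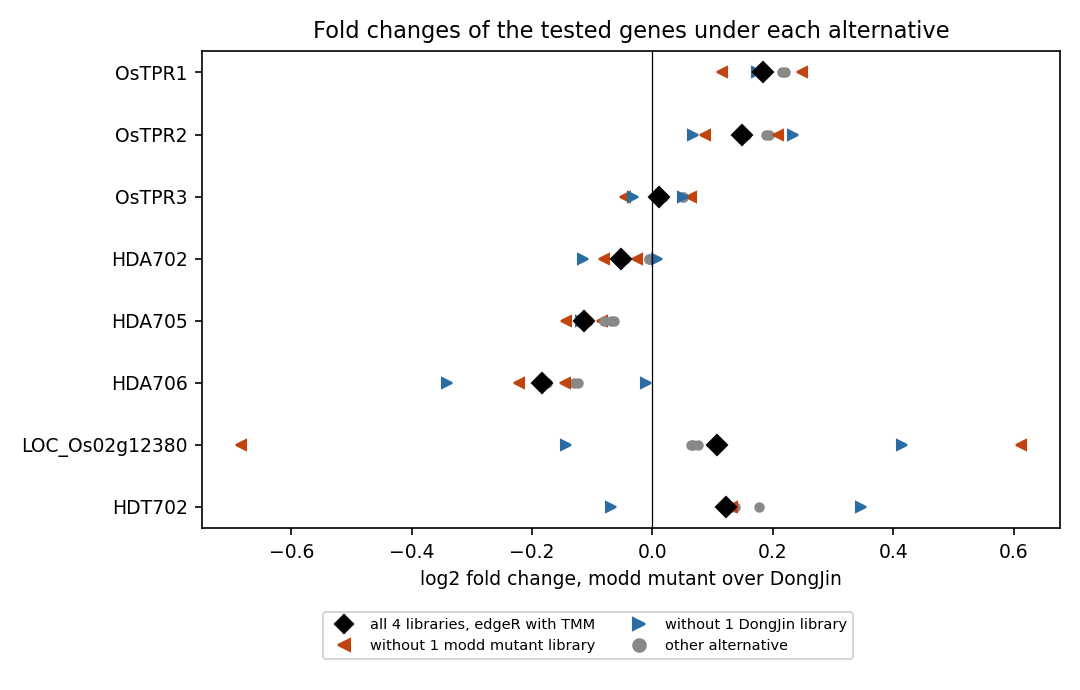
Log2 fold change, modd-labelled libraries over DongJin, of the 8 tested genes with all libraries (black diamonds), without 1 modd-labelled library (red), without 1 DongJin library (blue) and under other alternatives (grey). OsTPR1 and OsTPR2 stay above 0, from 0.07 to 0.25 for both together, HDA705 and HDA706 stay below 0, and LOC_Os02g12380 spreads from -0.68 to 0.61.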

How the data were processed

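The 4 libraries have a gene table each, made with BWA, Bowtie and RSEM per the submitters' processing notes, which give neither versions nor roles. The genome build is not given in the sources used here. Values deposited, per the file headers, are an expected count (estimated reads per gene), an FPKM and a transcript length. Only genes above 0 are listed, and a missing row was counted as 0. Expected counts were rounded and tested over the whole table with edgeR 4.0.16 in R 4.3.3 (filterByExpr at a minimum count of 10 and total of 15, TMM, robust quasi-likelihood test, Benjamini-Hochberg adjustment, threshold 0.05). SE is the absolute log2 fold change over the root of F, and 95% intervals use the fit's degrees of freedom. Intervals cover counting error and the spread between 2 libraries. Libraries of a group differed beyond sampling noise (chi-square per degree of freedom 2.54 with the modd label, 4.5 in DongJin). They are thus not 1 library counted again, which does not show that they come from separate plants. The fit was checked on simulated counts. Alternatives were other scalings, filters, DESeq2 1.42.0, limma 3.58.1 on log2(FPKM + 1) and log2(FPKM + 0.1), a replicate block and each library left out.

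Members and related lists were chosen with earlier results of these data known. All 10 members are described. Of other lists, called genes and up to 2 with the smallest adjusted p are named, with all tissue markers, and HDA712 and HDA713 for shared reads and likeness. No file identifier was found in the RefSeq gene table (assembly ASM3414082v1), so loci are printed. There TPR1 is a synonym of 2 genes, OsTPR1 one of the gene named TPR3, and OsTPR2 one of the gene on chromosome 1. Of 35 listed symbols, 8 were found there, 7 on the identifier's chromosome, OsTPR1 only by the synonym TPR1. HDA712 with HDA716, and HDA705 with its partners, were summed after seeing the data.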

Additional observations from a re-analysis of the deposited data

How the results depend on the processing

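Of the 10 genes, 0 were called under any of the 13 alternatives of the test, and 0 had an unadjusted p under 0.05 there, while the number of calls over all genes varied. That number was 162 with all libraries, 102 with upper-quartile factors, 764 without the count filter, 350 with DESeq2, and 0 with limma on log2(FPKM + 1) or log2(FPKM + 0.1), where an unadjusted p under 0.05 was found for 3093 and 3062 genes. It was 870 with the replicate number as a block. Replicate numbers are not said to mark shared plants or days. Same-numbered libraries did not deviate together (correlation 0.0126 over 19365 genes), which cannot tell how they were collected. With single libraries left out it ran from 144 to 2483: 144 without modd-labelled replicate 1, 591 without modd-labelled replicate 2, 2483 without DongJin replicate 1 and 457 without DongJin replicate 2. The lone library left is assumed to vary like the other group. The cause was not tested.

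Over 103 values of the 8 tested genes under alternatives, 97 kept their sign and their side of the threshold, and 6 changed sign, in 4 genes, all with a library left out. In those fits OsTPR3 ran from -0.0449 to 0.0638, HDA702 from -0.115 to 0.00801, LOC_Os02g12380 from -0.683 to 0.612 and HDT702 from -0.0694 to 0.347. Among related genes, HDA712 ran from -0.0924 to 0.387, HDA713 from -0.1 to 0.0663, HDA716 from -1.01 to -0.489, SRT701 from -0.299 to 0.116, SRT702 from -0.221 to 0.202, OsbZIP46 from -0.471 to 0.376, HDA714 from 0.203 to 0.511, HAC704 from -0.559 to -0.0444, HAC701 from -0.181 to -0.0591 and the panicle marker OsMADS14 from -0.117 to 0.0818. Among fits with all 4 libraries, HDA716 passed with the block (-0.76, edgeR adjusted p = 0.0464). It lay at the threshold without the count filter (-0.766, edgeR adjusted p = 0.0502). SRT702 was -0.00144 with the block. With reads summed over HDA712 and HDA716, the value of HDA712 was -0.256. On log2(FPKM + 1) and log2(FPKM + 0.1), OsbZIP46 was 0.0199 and 0.028, HDA713 was 0.0253 and 0.0263, OsMADS14 was 0.0235 and 0.025, and MODD did not pass (0.941 and 0.969, limma adjusted p = 0.091 and 0.103). Shares of family FPKM moved by at most 0.2 percentage points when taken from counts per length. DESeq2 gave no adjusted p for HDT702 and LOC_Os02g12380. Depth limits LOC_Os02g12380, LOC_Os02g12350 and HDT702, at 30.5 reads or fewer per library.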
